A study of Mus musculus with 4 samples.

Results

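The NF-kB system was followed through 10 of its genes in cells labelled as Neuro2a (N2a), a mouse neuroblastoma line, after transfection with an siRNA against Men1 or with a scramble siRNA. They are the 5 subunit genes Nfkb1, Nfkb2, Rel, Rela and Relb, the 3 inhibitor genes Nfkbia, Nfkbib and Nfkbie, and the feedback and survival genes Tnfaip3 and Birc3. The members were taken by gene name from the array annotation, a rule that uses no measured value, although the group of genes was proposed with earlier results of these data known. They took 20 of the 44170 targets on each array, and 10 of the 24171 genes. A target is a set of probes, 3 for every member target, designed against 1 transcript. RNA was measured on 4 single-colour arrays, 2 of cells given scramble siRNA (labelled as control genotype) and 2 of cells given Men1 siRNA (labelled as Men1 knockdown). All 4 samples were of the same line in serum-containing medium, and no cytokine or other stimulus is named in the labels. Men1 encodes the nuclear protein menin, which works in complexes that methylate histone H3, and the comparison asks which transcripts differ when it is knocked down.

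NF-kB is a family of dimeric transcription factors built from the subunits p50 (from Nfkb1), p52 (from Nfkb2), RelA (p65), RelB and c-Rel. In resting cells the dimers are held in the cytoplasm by inhibitors of the IkB family, and the uncleaved precursors p105 and p100 act as inhibitors too. Receptors for TNF, interleukin-1 and microbial products activate the IkB kinase, which marks IkB proteins for degradation, so that dimers enter the nucleus. Among the genes that NF-kB then switches on are its own inhibitors and the ubiquitin-editing enzyme A20, which close feedback loops, and Birc3, whose protein cIAP2 protects cells from death signals. In the nervous system the pathway is best known from glia, and in neurons it has been linked to survival and synaptic plasticity.

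Some facts of the arrays bear on every value below. The values are target intensities, named in the deposit as output of robust multi-array averaging (RMA), and 40.2% to 41.0% of targets lay under an intensity of 100 on each array. That level was taken as the lowest well above background, since the value table deposited by the authors lists the same 20620 targets that are at 100 or more on every array. Men1 read 6985 and 6222 with the scramble siRNA but 2764 and 4109 under Men1 siRNA, for a log2 change of −0.97 ± 0.35 (SE, n = 2 arrays per group) that did not pass the test (limma adjusted p = 0.314). These readings are of its brightest target. As the mean of all its targets Men1 had a smaller negative change, which did not pass either. Men1 thus had the direction that the labels state, without passing the test. Nothing in the labels says that the 2 arrays of a group came from separate cultures, so the p-values reflect only how far these arrays vary, and that variation may be technical. The cell label is not borne out by all markers. Of 10 measured markers of sympathoadrenal neuroblasts, the lineage of the labelled line, 5 were at 100 or more on all arrays. Of all 24171 genes 12648 were, so that count is near the common share. The 10 summed to 28536 and 32832 with scramble siRNA and to 38001 and 37607 with Men1 siRNA. In the same arrays 7 of 7 measured forebrain neuron markers and the globin genes Hba-a1 and Hbb-b1, whose probes may also read near-identical copies, were above 100 on all arrays. Epithelial and fibroblast markers were bright on the scramble siRNA arrays and dimmer on the Men1 siRNA arrays, with values given beside the results.

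Several of the members are themselves known NF-kB targets, so their promoters were searched for the motif. Promoters of 8 of the 10 members were found in the RefSeq promoter table (build GRCm38.p6), with several starts for Nfkb2 and Tnfaip3. Nfkb1 and Relb were not matched. The 250 bases before each start were searched on both strands for the kB consensus decamer, the binding motif of NF-kB dimers. At least 1 match was found for 5 members, Nfkb2, Rel, Nfkbia, Nfkbie and Tnfaip3, and none for Rela, Nfkbib and Birc3. Of all 32851 windows in the table, 3.90% held a match, and of the 27025 genes 4.46% held one in any window. The windows of these 5 members are shown to let the sites be seen, with the start of the gene at the right end, and that of Birc3 because it had the largest difference between groups. Capitals mark each match on either strand, and overlapping matches run together.
Nfkb2, chr19:46304487-46304736, plus strand: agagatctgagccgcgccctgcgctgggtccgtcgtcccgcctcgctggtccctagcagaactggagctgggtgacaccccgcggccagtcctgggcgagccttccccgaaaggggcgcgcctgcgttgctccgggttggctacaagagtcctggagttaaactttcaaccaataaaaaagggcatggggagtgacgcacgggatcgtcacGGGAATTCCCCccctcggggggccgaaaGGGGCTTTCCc
Rel, chr11:23770970-23771219, minus strand: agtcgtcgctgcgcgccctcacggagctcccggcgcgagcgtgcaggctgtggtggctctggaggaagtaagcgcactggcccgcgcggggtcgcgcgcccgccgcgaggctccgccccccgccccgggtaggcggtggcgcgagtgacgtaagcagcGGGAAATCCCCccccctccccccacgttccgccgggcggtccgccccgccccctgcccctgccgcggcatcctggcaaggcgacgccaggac
Nfkbia, chr12:55492648-55492897, minus strand: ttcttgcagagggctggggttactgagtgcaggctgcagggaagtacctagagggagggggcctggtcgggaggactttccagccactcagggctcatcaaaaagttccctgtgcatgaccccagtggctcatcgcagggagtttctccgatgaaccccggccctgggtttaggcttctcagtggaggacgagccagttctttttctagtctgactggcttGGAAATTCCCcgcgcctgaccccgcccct
Nfkbie, chr17:45555450-45555699, plus strand: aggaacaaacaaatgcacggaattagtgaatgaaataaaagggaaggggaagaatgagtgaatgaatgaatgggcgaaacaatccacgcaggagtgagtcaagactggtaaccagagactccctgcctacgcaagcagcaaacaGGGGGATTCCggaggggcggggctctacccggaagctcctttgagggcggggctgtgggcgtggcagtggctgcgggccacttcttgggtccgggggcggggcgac
Tnfaip3, chr10:19015411-19015660, minus strand: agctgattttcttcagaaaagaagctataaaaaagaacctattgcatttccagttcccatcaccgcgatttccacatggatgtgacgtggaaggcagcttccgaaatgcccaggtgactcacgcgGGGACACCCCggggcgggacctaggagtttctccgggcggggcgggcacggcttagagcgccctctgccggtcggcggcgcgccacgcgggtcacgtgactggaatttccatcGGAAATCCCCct
Birc3, chr9:7873171-7873420, minus strand: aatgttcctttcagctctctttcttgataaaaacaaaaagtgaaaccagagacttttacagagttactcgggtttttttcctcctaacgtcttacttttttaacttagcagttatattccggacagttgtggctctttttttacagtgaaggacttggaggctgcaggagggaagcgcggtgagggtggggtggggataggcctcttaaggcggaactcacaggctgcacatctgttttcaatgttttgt
The Nfkb2 window has a match that begins 39 bases before the start and reads the same on both strands, GGGAATTCCC, and another that ends 2 bases before the start. Both other Nfkb2 starts had 1 match each, and the other Tnfaip3 start had none. The Nfkbia match begins 29 bases before the start, and the last Tnfaip3 match 12 bases before it. A match is only a run of letters and does not show that a factor bound there, and the lack of one in this window says nothing about sites elsewhere.

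**Figure D1:**
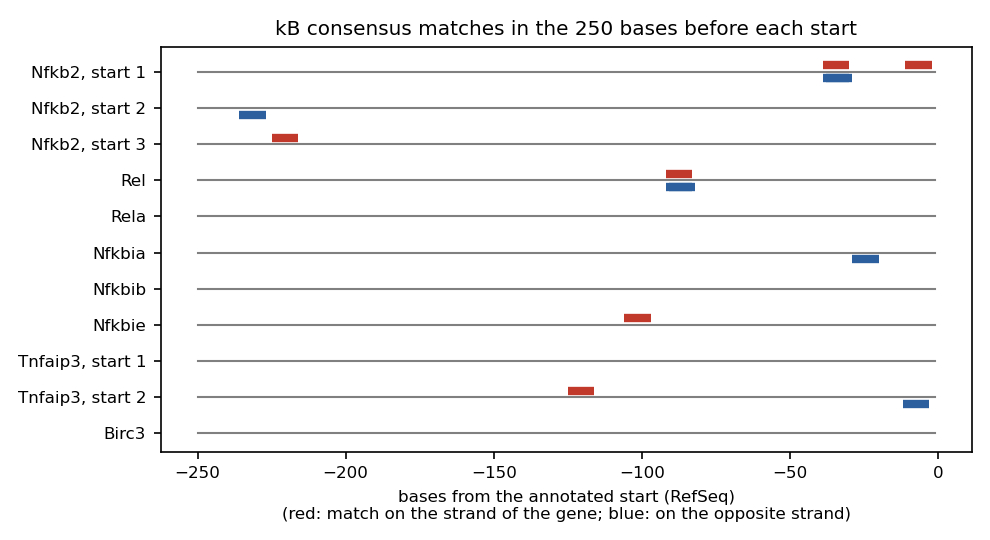
Position of each kB consensus match in the 250 bases before each RefSeq start of 8 members, in bases from the start. Red bars are matches on the strand of the gene and blue bars on the opposite strand, several starts of a gene are numbered by coordinate, and Rela, Nfkbib, Birc3 and 1 Tnfaip3 start have no bar.

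None of the 10 members passed the threshold in limma (adjusted p under 0.05 over all genes), where 0.389% of all genes did. At an unadjusted p under 0.05 there were 2, Nfkb2 and Birc3, both lower on the Men1 siRNA arrays, where 7.74% of all genes were lower by that measure and 14.2% differed in either direction. Nfkbie and Tnfaip3 were under 100 on every array, and the changes of the other 8 ran from −1.84 to 0.12 on the log2 scale with a median of −0.50 (−0.45 with both included), against a median of 0.06 over all genes. Of the 10, both dim genes included, 8 were negative and 2 positive, where 45.5% of all genes were negative. For 5 members the Men1 siRNA readings were both under the lower scramble siRNA reading, where 21.7% of all genes did so, and for 1, Nfkbib, both lay above, where 25.8% of all genes did so. The smallest two-sided p that an exact permutation test of 2 against 2 arrays allows is 0.33, and single members were therefore tested only through the fit across all genes. Their standard errors, 0.31 to 0.46, leave wide intervals.

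**Figure D2:**
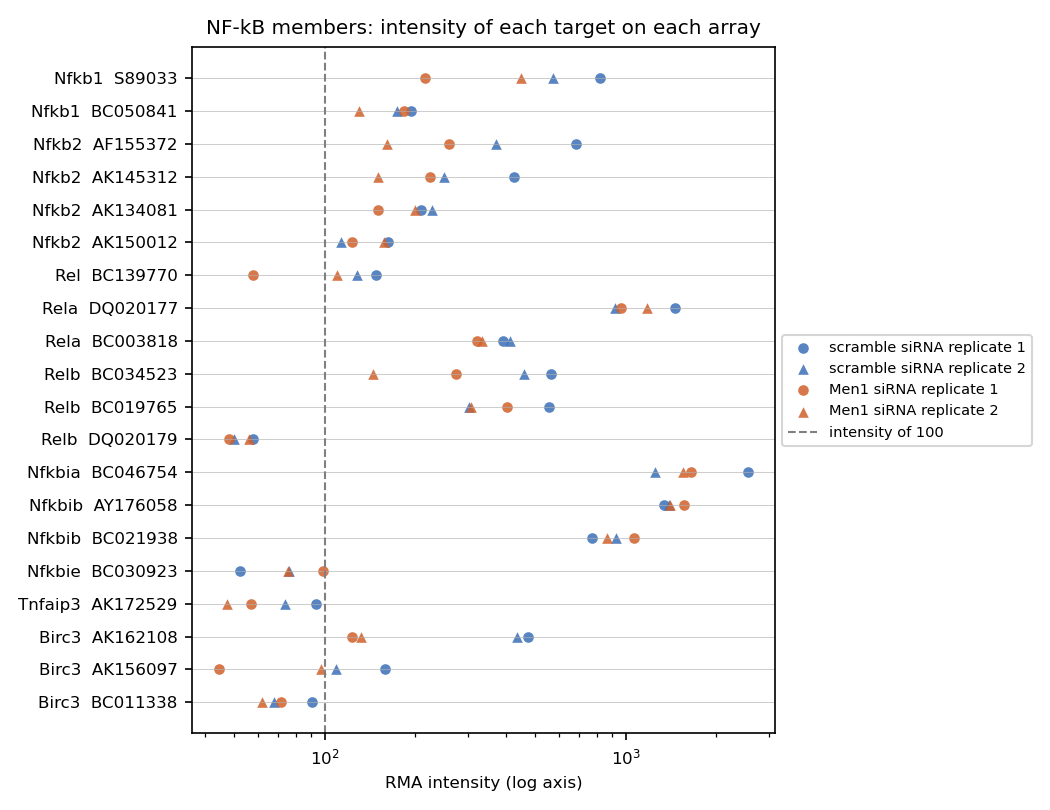
RMA intensity (log axis) of the 20 member targets on each of the 4 arrays, with scramble siRNA in blue, Men1 siRNA in orange, and replicate 1 and 2 as circles and triangles. The dashed line is an intensity of 100, and the separation of the colours is widest for the Birc3 target AK162108, at 435 and 475 against 123 and 131.

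At the target that stands for each gene, the larger negative changes among the subunit genes lay with the precursor genes Nfkb2 and Nfkb1 and with Rel. That depends on the target: the Relb target BC034523 had −1.36 and the Nfkb1 target BC050841 only −0.25, both described below. All 5 subunit genes had negative changes and none passed. For Nfkb2, whose p100 product is both an inhibitor and the source of p52 in the non-canonical pathway, the brightest of 4 targets (AF155372, chromosome 19, 46379289 to 46386580 on MM9) read 684 and 371 in scramble siRNA cells and 258 and 161 with Men1 siRNA. The groups did not overlap, but the scramble siRNA arrays differed from each other by 1.85 times. The log2 change was −1.30 ± 0.45 (SE, 95% interval −2.42 to −0.18, limma adjusted p = 0.299), and it ran from −1.75 to −0.86 as single arrays were left out. The other Nfkb2 targets gave smaller values, −0.82 ± 0.42 for AK145312, −0.33 ± 0.34 for AK134081 and 0.037 ± 0.37 for AK150012. The 4 targets are annotated to nearly the same stretch of the gene.

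Nfkb1 has 2 targets that lie apart on the gene. The target S89033 (chromosome 3, 135247618 to 135271410) is annotated as I kappa B gamma, a transcript for the carboxy-terminal, inhibitory part of p105. It read 819 and 572 under scramble siRNA against 216 and 450 with Men1 siRNA, with no overlap and a log2 change of −1.14 ± 0.46 (SE, 95% interval −2.29 to 0.02, limma adjusted p = 0.357). The change ran from −1.67 to −0.61 as single arrays were left out, the smaller value without Men1 siRNA replicate 1. The target BC050841 (135274989 to 135354511), annotated as p105 mRNA and placed on a span that does not meet that of the other, read 194 and 174 against 183 and 130. There the groups overlapped, and the log2 change was −0.25 ± 0.35. The difference between the 2 Nfkb1 targets was −0.88 ± 0.62 and did not pass in a limma fit of the brightest against the next brightest target over 10215 genes (adjusted p = 0.725). That fit was added after the data were seen, and it called 0% of genes.

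For Rel, which encodes c-Rel, a subunit best known from lymphoid cells, the only target read 148 and 128 with the scramble siRNA but 57.9 and 110 with Men1 siRNA. The groups did not overlap, but 1 Men1 siRNA array was under 100. The log2 change was −0.79 ± 0.41 (limma adjusted p = 0.451). It ran from −1.25 to −0.33 as single arrays were left out.

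Rela encodes the main activating subunit p65. Its brighter target read 1457 and 922 in scramble siRNA cells and 968 and 1180 with Men1 siRNA, and the groups overlapped. The log2 change was −0.12 ± 0.37 (SE, 95% interval −1.04 to 0.81, limma adjusted p = 0.910). Its sign turned without scramble siRNA replicate 1 (0.21) and without Men1 siRNA replicate 1 (0.025). The dimmer Rela target was tight within each group, 391 and 413 against 320 and 333, without overlap between them, and had a log2 change of −0.30 ± 0.32 (limma adjusted p = 0.719).

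Relb, whose protein pairs with p52 in the non-canonical pathway, gave different values by target. The target that stands for the gene, BC019765, read 557 and 301 under scramble siRNA against 404 and 307 with Men1 siRNA. The groups overlapped, with a log2 change of −0.22 ± 0.42 (limma adjusted p = 0.844) that was 0.23 without scramble siRNA replicate 1. The target BC034523, annotated to nearly the same span of chromosome 7 (20191570 to 20214600 on MM9), read 563 and 460 against 272 and 145. There the groups did not overlap, and the log2 change was −1.36 ± 0.42 (95% interval −2.39 to −0.33), which did not pass over all 44170 targets (limma adjusted p = 0.277). The third target was under 100 on all arrays. The difference between the 2 brighter Relb targets was 1.14 ± 0.46, the widest among the 6 members with several targets when the 2 brightest of each are compared, and did not pass (limma adjusted p = 0.553).

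Of the 3 inhibitor genes 1 had a negative change and 2 a positive one, and none passed. Nfkbia encodes IkB-alpha, the inhibitor that NF-kB itself induces most quickly. It read 2558 and 1249 with the scramble siRNA but 1652 and 1544 with Men1 siRNA, so both Men1 siRNA arrays lay between the 2 scramble siRNA arrays, which differed by 2.05 times. The log2 change was −0.16 ± 0.43 (SE, 95% interval −1.24 to 0.92, limma adjusted p = 0.892), and 0.35 without scramble siRNA replicate 1. As folds that interval runs from 2.36 times lower to 1.89 times higher. Nfkbib encodes IkB-beta, a more slowly degraded inhibitor. It read 1337 and 1389 in scramble siRNA cells and 1563 and 1407 under Men1 siRNA, for a log2 change of 0.12 ± 0.31 (95% interval −0.64 to 0.88, limma adjusted p = 0.884), with 0.18 ± 0.34 at its other target. Nfkbie, which encodes IkB-epsilon, was under 100 on every array, at 52.2 and 76.2 against 98.4 and 75.4, and no size of change can be given.

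The feedback gene Tnfaip3, which encodes A20, was also under 100 on every array. It read 93.5 and 73.7 under scramble siRNA against 56.9 and 47.1 with Men1 siRNA, without overlap (limma adjusted p = 0.420), and no fold can be given at this level. A negative or positive sign of Tnfaip3 and Nfkbie in the counts above therefore compares dim readings.

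Birc3 showed the widest separation between groups among the members. Its brightest target (AK162108, chromosome 9, 7854366 to 7873127 on MM9) read 475 and 435 with the scramble siRNA but 123 and 131 with Men1 siRNA. The Men1 siRNA level was 28.0% of the scramble siRNA level, and the arrays within a group differed by at most 1.09 times. The log2 change was −1.84 ± 0.31 (SE, n = 2 per group, 95% interval −2.60 to −1.07), which placed Birc3 at rank 308 of 24171 genes by p without passing (limma adjusted p = 0.0973). It passed when only genes above 100 on at least 2 arrays were tested (limma adjusted p = 0.0477) and in the authors' value table (limma adjusted p = 0.0162), where also fewer genes were tested, and over the other alternatives that kept this target its adjusted p ran up to 0.451. The change ran from −1.90 to −1.77 as single arrays were left out.

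The other 2 Birc3 targets were dim. AK156097, at the far end of the gene (7848700 to 7851547), read 159 and 109 in scramble siRNA cells and 44.4 and 97.2 with Men1 siRNA, at least 1.31-fold lower, since both Men1 siRNA arrays were under 100. BC011338, whose span (7855815 to 7872983) lies within that of the brightest target, was under 100 on all arrays. The mean of the 3 targets gave −1.02 without passing (limma adjusted p = 0.251). The annotation of this gene lists Birc2 and cIAP1 among its alternative names, and probes were not checked against Birc2, the near paralog beside it. Birc2 itself had a log2 change of −0.0089.

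**Figure D3:**
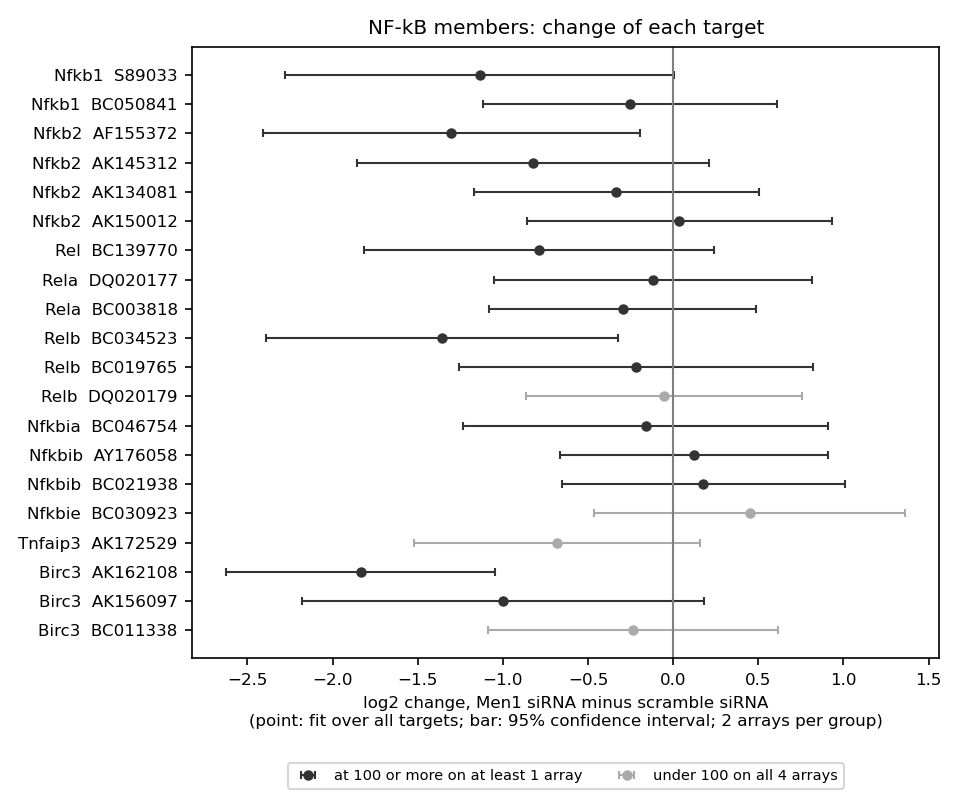
Log2 change (Men1 siRNA minus scramble siRNA) of the 20 member targets from the fit over all targets, with 95% confidence intervals, n = 2 arrays per group. Grey points were under 100 on all arrays, and the intervals of 3 targets, Nfkb2 AF155372, Relb BC034523 and Birc3 AK162108, lie wholly below 0, before adjustment for the number of targets.

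Of the 20 targets 0 passed, where 0.34% of all targets did, and 3 were lower at an unadjusted p under 0.05, where 7.41% were. Negative changes were found at 16, where 45.8% of all targets had one. At 10 the groups did not overlap and Men1 siRNA was lower, where 21.3% of all targets were like that. Targets of 1 gene share its transcripts and are not independent of each other. Scramble siRNA replicate 1 read higher than replicate 2 at 15 of the 20 member targets, 75.0%, against 44.7% of all targets. Which of these 2 arrays was unusual cannot be told from that. Without scramble siRNA replicate 1 the changes of Rela, Relb and Nfkbia turned positive, as given above, while those of Nfkb1, Nfkb2, Rel and Birc3 stayed negative.

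The other genes of the pathway, 90 measured in 6 lists, are given in order from ligands to target genes, and each list held negative and positive changes. Of the 9 ligand genes 0 passed and 2 reached an unadjusted p under 0.05, where 14.2% of all genes reached it. Ltb, a membrane-bound ligand of the non-canonical pathway, read 578 and 609 under scramble siRNA against 1554 and 1999 under Men1 siRNA, for a log2 change of 1.57 ± 0.32 (limma adjusted p = 0.144). Tnfsf12, which encodes the ligand TWEAK, had −1.46 ± 0.33. Tnf read 236 on scramble siRNA replicate 1 and 36.9 to 44.5 on the other 3 arrays, so its difference rests on 1 array. Il1b was under 100 on all arrays.

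Of the 11 measured receptor genes 9 had negative changes, 0 passed and 4 reached an unadjusted p under 0.05, with a list median of −0.35. Over all genes 45.5% were negative and 14.2% reached that p. Tnfrsf1a, the main TNF receptor gene, read 1900 and 903 with the scramble siRNA but 385 and 274 under Men1 siRNA, for a log2 change of −2.01 ± 0.46 (limma adjusted p = 0.175). Il1r1, the interleukin-1 receptor gene, had −2.60 ± 0.65 with 1 Men1 siRNA array under 100, while its partner Il1rap had 1.08 ± 0.33. The Il1r1 value ran from −3.38 to −1.82 as single arrays were left out, and as the mean of targets Il1r1 had −1.99 and Il1rap 0.42. Tlr3, a receptor gene for double-stranded RNA, was at least 1.20-fold lower by its bound and did not pass (limma adjusted p = 0.309).

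Among the 15 adaptors and upstream kinases 0 passed, 9 were negative and the median was −0.24, where 45.5% of all genes were negative. Myd88, the adaptor of most Toll-like and interleukin-1 receptors, read 4929 and 2115 in scramble siRNA cells and 224 and 248 under Men1 siRNA, for a log2 change of −3.77 ± 0.48 (limma adjusted p = 0.0591). It passed in the authors' value table (0.00713), with dim genes left out (0.0352), with a prior that follows intensity (0.000761) and with a pseudocount of 32 (0.0289), all as limma adjusted p, which ran up to 0.274 without scramble siRNA replicate 1. The kinase gene Irak1 had −1.60 ± 0.38 and the ubiquitin ligase gene Traf6 −1.25 ± 0.34. As means of targets Irak1 had −1.10 and Traf6 −0.24. Ripk1, the kinase gene of TNF receptor signalling, had −2.20 ± 0.60 with 1 Men1 siRNA array under 100. Averaging its targets gave −1.28 for Ripk1, and leaving out Men1 siRNA replicate 2 or 1 gave −1.36 or −3.04.

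Of the 5 IkB kinase genes 0 passed, and their signs were mixed. The catalytic subunits Chuk and Ikbkb had −0.86 ± 0.39 and −0.67 ± 0.33, and the related kinase Ikbke −0.76 ± 0.33. The regulatory subunit Ikbkg, also known as NEMO, had 1.07 ± 0.38. As means of targets Chuk, Ikbkb and Ikbkg had smaller changes of −0.40, −0.29 and 0.64. For all 5 the groups did not overlap, 3 lower and 2 higher. Over all genes 21.7% were lower and 25.8% higher without overlap, so with so few arrays this is common for a single gene. The 5 genes as a list were not tested.

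Of 18 other IkB proteins and negative regulators 0 passed, 12 were negative and the median was −0.11, where 45.5% of all genes were negative. Nfkbiz, a nuclear IkB protein gene, read 1389 and 778 under scramble siRNA against 237 and 154 under Men1 siRNA, for a log2 change of −2.44 ± 0.43 (limma adjusted p = 0.110), or −1.83 as the mean of targets. Nfkbid, another nuclear IkB protein gene, had 0.77 ± 0.33, or 0.19 as the mean of targets. The A20-binding gene Tnip2 had −0.86 ± 0.35. Nfkbil1 had −0.80 ± 0.33.

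Of 32 measured genes reported as NF-kB targets, 1 fell, 0 rose and 31 did not pass, with 17 negative and a median of −0.16. Over all genes 0.389% passed. The gene that fell, Cd44, encodes a hyaluronan receptor. Its level was lower by at least 6.87-fold, from 646 and 730 to 81.0 and 95.5 at the brightest of its 4 targets (limma adjusted p = 0.0405). The other targets had −1.46, 0.018 and 0.38, and the mean of the 4 was −1.01 without passing (limma adjusted p = 0.222). The Cd44 call was also lost in the value table, which holds another target as the brightest (−1.46, limma adjusted p = 0.0610), with a floor at 100 (0.0796) and with the replicate number as a block (0.0698). With 1 array left out no gene passed at all, and the Cd44 change was −3.08 to −2.85. Irf1, an interferon regulatory factor gene, had −2.45 ± 0.51 and the growth factor gene Csf1 1.67 ± 0.36, with −0.92 and 0.97 as means of their targets. The Irf1 value ran from −3.14 to −1.77 as single arrays were left out. Csf2 was lower by at least 1.51-fold, being under 100 with Men1 siRNA, and did not pass (limma adjusted p = 0.197). Of the 90 genes in the 6 lists, 55 (61.1%) were negative, with a median log2 change of −0.20, where 45.5% of all genes were negative. An unadjusted p under 0.05 was reached by 20 (22.2%), 15 of them lower, where 14.2% of all genes reached it.

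**Figure D4:**
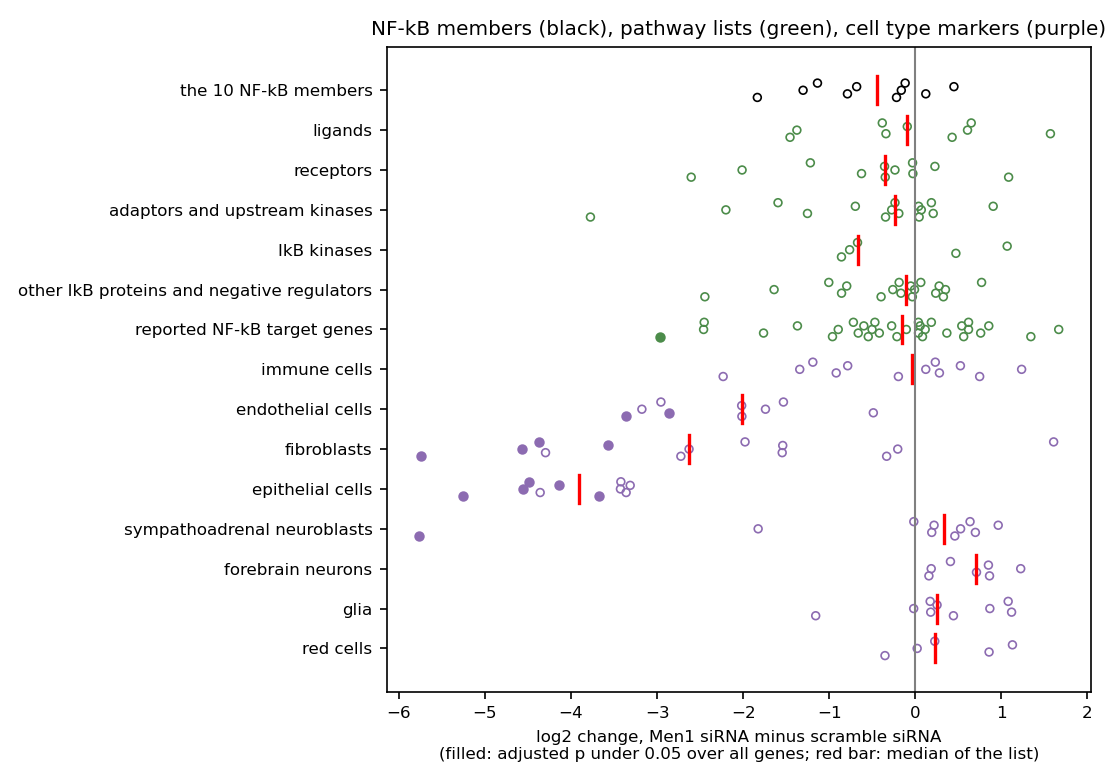
Log2 change (Men1 siRNA minus scramble siRNA) of each measured gene, with the 10 NF-kB members in black, the 6 pathway lists in green and the 8 cell type marker lists in purple. Filled points passed an adjusted p under 0.05 over all genes and red bars are medians, from −3.91 for epithelial markers to 0.71 for forebrain neuron markers, with the members at −0.45.

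Markers of cell types were read beside these values, and their lists differed in direction. Over all genes 0.389% passed the threshold and 45.5% were negative. Epithelial markers summed to 32130 and 20165 with scramble siRNA but 1179 and 2382 after Men1 siRNA, with 5 of 10 past the threshold, all lower, and the keratin gene Krt8 and the cadherin gene Cdh1 had log2 changes of −3.67 ± 0.32 and −4.56 ± 0.42. Endothelial markers, 9 of 9 negative with 2 past the threshold, Eng and Emcn (at least 9.72-fold and 4.50-fold lower), summed to 10332 and 6570 against 1733 and 1751. Of 13 fibroblast markers 12 were negative and 4 passed, and the collagen genes Col6a2 and Col1a1 had log2 changes of −5.75 ± 0.34 and −4.37 ± 0.34. As means of targets Eng, Emcn and Col6a2 had smaller changes of −1.91, −1.71 and −2.93. Fibroblast markers summed to 72032 and 67699 against 21757 and 26023. Immune markers were evenly split, 6 negative and 6 positive with 0 past the threshold and a median of −0.037, summing to 6884 and 4983 against 3838 and 4586, and Cd14 and Cd68 had −2.23 ± 0.31 and −1.19 ± 0.33. Glial markers, at a median of 0.25 with 0 of 9 past the threshold (Sox10 −1.16 ± 0.35, Olig2 1.12 ± 0.34), and red cell markers, at 0.23 with 0 of 5 (Hbb-b1 1.13 ± 0.39, Hba-a1 0.86 ± 0.47), did not have lower medians. Of the 10 sympathoadrenal markers 3 were negative and 7 positive, with a list median of 0.34. Only Gata2 passed, at least 45.5-fold lower, and Gata3 had −1.83 ± 0.40, or −0.83 as the mean of its targets. Of the 7 forebrain neuron markers 7 were positive and 0 passed, with Gad2 at 1.23 ± 0.39 and Gad1 at 0.86 ± 0.34. As means of targets Gad2, Gad1 and Sox10 had 0.84, 0.62 and −0.72. The part of these cell types in the lower values of Birc3, Nfkb2, Nfkb1 and the receptor and adaptor genes was not tested, and fewer cells of a type and less RNA per cell cannot be told apart.

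The genes nearest to Birc3 in their pattern over the 4 arrays were Parp10, Dap and Dock6. Likeness was the distance between log2 values centred on each gene's mean, over 4 arrays and among genes brighter than the median gene, and the distances were 0.0996, 0.130 and 0.166. Parp10, an ADP-ribosyltransferase gene, read 920 and 860 with the scramble siRNA but 237 and 276 with Men1 siRNA. With 4 arrays such a match describes only that the genes had the same order and size of difference.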

How the data were processed

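The deposited values of the 4 arrays are linear intensities, 1 per target on MM9 per the file headers, in files named as RMA output. The handling of images and background is not given in the sources used here. Per the labels' protocols labelling followed NimbleGen, which the file format matches, although the series design names an Agilent array. Image names in the files do not all carry the replicate numbers of the labels, and 1 names no group. Of 20620 targets in the deposited value table, 20617 match (within 1e-04) once the 2 scramble siRNA columns are exchanged, so replicate numbers only name arrays.

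Symbols were updated through gene IDs (21583 of 24204 matched RefSeq). Intensities were taken to log2 without a pseudocount, and a gene is represented by its target with the highest mean. The limma 3.58.1 functions lmFit and eBayes (R 4.3.3) tested group as the only term, two-sided, with Benjamini-Hochberg adjustment over 24171 genes, or over 44170 targets for single targets. Intervals are at 95%. Where both arrays of 1 group were under 100, a fold is a bound, computed against 100, and it leaves out the spread between arrays. The fit was tested on simulated data. Tables and plots came from Python 3.11.15 (with pandas 2.3.3, numpy 2.4.6, matplotlib 3.10.9). Normalization, priors, filters, the pseudocount, the choice of target, the replicate block and leaving out arrays were varied.

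The members and lists were chosen with earlier results of these data known. The genes named are all members, Men1, up to 4 per pathway list and 2 per marker list with the smallest p, and pathway genes past the threshold, plus the 3 nearest to the member with the smallest p. Birc2 was added after seeing the data. One marker result is not reported here. Of 94 pathway genes listed, 90 were measured.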

Additional observations from a re-analysis of the deposited data

How the results depend on the processing

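Birc3 kept its direction in every alternative run (its dimmest target gave −0.24, limma adjusted p = 0.800) and passed in 2 of them, with dim genes left out and in the authors' value table, so that 1 member passed there, of 8 and 7 tested, and 0 of the 10 in every other alternative. No other member passed in any. Of 153 recomputed values of the members, 147 kept their direction and their side of the threshold, as did 603 of 724 values of the other named genes. The replicate blocks, the priors and the filter on dim genes leave a log2 change as it is. So did the value table for the 7 members in it, whose intensities are the same once the scramble siRNA columns are exchanged. Direction could not turn in any of those, so these counts do not measure how firm a value is. As single arrays were left out, the log2 change ran from −0.45 to 0.21 for Rela, positive without replicate 1 of either group, and from −0.66 to 0.23 for Relb and −0.68 to 0.35 for Nfkbia, both positive without scramble siRNA replicate 1. Signs also turned for the Nfkb2 target AK150012 (0.037), for Il1b as the mean of its targets (−0.23) and for the Cd44 targets AK087472 (0.018) and X66084 (0.38). The cause was not tested. With a floor at 100, added after the data were seen, Nfkbie and Tnfaip3 gave no value, and the value table does not list them or Rel. The filter on dim genes drops Nfkbie and Tnfaip3.

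Over all genes 94 passed (9 higher and 85 lower). The count was 418 in the value table, 289 with dim genes left out, 711 with a trended prior, 252 with a pseudocount of 32, 150 with every target on its own and 8 with the floor. In limma it ran from 0 to 0 with any 1 array left out (unadjusted p under 0.05 in 2105 to 3356 genes) and was 0 with crossed replicate numbers as a block (3980). Of the 90 pathway genes 1 passed. The count was 8 in the value table, 9 with a trended prior, 2 with dim genes left out and 2 with a pseudocount of 32. It was 0 in limma as the mean of targets, with the floor, with the crossed block, with the replicate block and with any 1 array left out, where 13 to 24 of them reached an unadjusted p under 0.05.

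Same-numbered arrays did not deviate together (r = −0.17 across genes), and the numbers were not taken as pairs. The value table numbers the scramble siRNA arrays the other way, which turns the sign of r, so this check cannot settle whether arrays were paired. With the replicate number as a block 69 genes and 0 members passed, and Birc3 had an adjusted p of 0.195 in limma. The number of arrays and intensities under 100 limit what can be seen for Rel, Nfkbie and Tnfaip3.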
